A study of Homo sapiens with 8 samples.

Results

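The IFI genes examined here are 8 human genes named as interferon-inducible, IFI6, IFI16, IFI27, IFI30, IFI35, IFI44, IFI44L and IFIH1, chosen by name out of 62062 genes annotated on chromosomes 1 to 22 and X. For each gene, open chromatin was read from peaks within 1 kb of any annotated transcription start site (TSS), called its promoter peaks, and from peaks elsewhere in the gene body or within 10 kb of it. The study profiled U2OS cells, a human osteosarcoma line, by FAIRE-seq, in which chromatin is fixed with formaldehyde and sheared, and DNA depleted of nucleosomes is recovered from the aqueous phase and sequenced. The 8 libraries came from 4 clones, the wild-type (WT) clones WT_4 and WT_5 and the ZBTB48 knockout (KO) clones KO_C5 and KO_D2. ZBTB48 is a zinc finger protein that binds telomeric repeats and some promoters. Each clone gave 1 untreated library and 1 library after 250 U/ml interferon gamma (IFNγ), so that each of the 4 groups, WT, KO, WT with IFNγ and KO with IFNγ, held 2 libraries. The labels give 24 h of IFNγ, whereas the study's text names a longer exposure for some of its chromatin data, so the duration is uncertain. With 2 separately isolated clones per genotype a difference between genotypes and a difference between clones cannot be told apart.

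Interferons signal through receptor-bound JAK kinases to transcription factors that enter the nucleus. Factors activated by IFNγ bind the gamma-activated site (GAS), and those activated by type I interferons bind the interferon-stimulated response element (ISRE). IRF1, itself induced by IFNγ, also binds ISRE-like sequences. The IFI genes share a history of discovery as transcripts raised by interferon rather than a protein family. IFI6 and IFI27 encode small hydrophobic proteins of mitochondrial and other membranes, IFI16 and IFIH1 (the protein MDA5) sense foreign DNA and long double-stranded RNA, IFI30 encodes the lysosomal thiol reductase GILT that unfolds antigens for MHC class II loading, IFI35 encodes a leucine zipper protein that pairs with NMI, and IFI44 and IFI44L are neighbouring paralogs on chromosome 1.

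The sequence before the start sites of 5 of these genes is shown first, because the interferon motifs in them were set beside the peaks. Sequences are RefSeq promoters of the GRCh38.p14 build, given 5′ to 3′ on the strand of the gene and cut where an annotated exon begins. Capitals mark whole matches, on either strand, to the ISRE core GAAANNGAAA or the GAS core TTCNNNGAA, and in IFI30 to the telomere hexamer TTAGGG, the repeat that ZBTB48 binds. The stretches are chr1:27672213-27672442 (minus strand) for IFI6, chr1:78620198-78620381 (plus) for IFI44L, chr2:162318685-162318839 (minus) for IFIH1, chr14:94110486-94110677 (plus) for IFI27 and chr19:18173563-18173803 (plus) for IFI30. The first 3 genes had promoter peaks over ISRE matches, IFI27 had the matches without a peak, and IFI30 had the most regular peak without an ISRE match.
IFI6: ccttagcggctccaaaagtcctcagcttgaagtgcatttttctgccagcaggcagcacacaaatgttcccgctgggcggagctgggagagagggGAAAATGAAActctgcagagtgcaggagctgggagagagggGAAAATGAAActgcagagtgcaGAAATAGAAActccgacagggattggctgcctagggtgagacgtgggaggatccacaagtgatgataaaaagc
IFI44L: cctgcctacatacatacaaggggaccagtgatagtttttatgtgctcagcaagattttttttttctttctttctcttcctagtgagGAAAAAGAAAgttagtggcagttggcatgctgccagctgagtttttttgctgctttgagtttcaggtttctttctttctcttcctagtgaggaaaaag
IFIH1: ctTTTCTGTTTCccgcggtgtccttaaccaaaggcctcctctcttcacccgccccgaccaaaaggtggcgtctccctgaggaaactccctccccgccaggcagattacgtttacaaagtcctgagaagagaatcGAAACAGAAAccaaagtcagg
IFI27: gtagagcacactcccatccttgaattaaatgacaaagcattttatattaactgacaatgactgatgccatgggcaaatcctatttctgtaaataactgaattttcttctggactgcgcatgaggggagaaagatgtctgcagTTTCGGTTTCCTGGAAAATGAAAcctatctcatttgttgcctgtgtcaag
IFI30: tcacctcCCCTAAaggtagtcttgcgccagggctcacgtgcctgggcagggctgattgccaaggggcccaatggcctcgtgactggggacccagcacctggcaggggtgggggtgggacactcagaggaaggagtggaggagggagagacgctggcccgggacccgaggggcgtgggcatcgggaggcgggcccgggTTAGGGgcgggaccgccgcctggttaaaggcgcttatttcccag

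Of the 8 genes, 5 (IFI6, IFI27, IFI44, IFI44L and IFIH1) held an ISRE core between 250 bases before and 50 bases after a RefSeq start, against 3.57% of 35116 RefSeq promoters. The 3 matches of IFI6 began at bases -156, -115 and -93 from its start, counted with -1 as the base just before it. A direct repeat of 29 bases carried the first and second of them. IFI44L held 2 matches, at -164 and -73, inside a direct repeat of 85 bases, the longest such repeat of the 8 genes, and 0.384% of all promoters held a repeat of at least 50 bases. Since the match at -73 runs into an exon, it is not printed whole. IFIH1 held 1 match on its own strand at -21 and 2 overlapping ones on the opposite strand at -159 and -153, of which the one at -159 lies partly outside the printed stretch. IFI27 and IFI35 held a GAS core, present in 7.66% of promoters, and in IFI27 it overlapped both ISRE matches. TTAGGG was in the IFI30 promoter alone among the 8, at -53 on its own strand and at -243 on the other, and in 9.05% of all promoters. None of the 3 motifs was found in either RefSeq promoter of IFI16, which do not reach the upstream start where most of its peaks lay. There, the 300 bases around the summits of its 2 peak regions held a GAS core in one and an ISRE core in the other, found in 6.89% and 4.12% of such windows over all regions. A match is a description of the letters, and binding was not measured here.

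The peak lists differed in length, which sets how readily any gene receives a peak. They held 16730 to 29567 peaks in untreated libraries and 18913 to 37533 after IFNγ, and between 16127 and 20367 genes per library had a promoter peak. Read counts were not used, and peak strength is given as the deposited fold enrichment, the fragment pileup at the summit over a local background, and as the percentile of −log10 p within a library's own list, where 0 stands for no peak. The lowest summit pileup of a listed peak was 5 or 6 fragments, but a site over a higher local background needs more to be listed. A peak near IFI35 in KO_C5 with IFNγ, with 13 fragments over a background of 2.62, reached a percentile of only 3.72. A gene without a peak may therefore still hold fragments, and how many can differ between libraries. Among the cell type markers, promoter peaks were listed for 7 of 8 mesenchymal and bone genes (not COL1A2), with VIM, COL1A1, RUNX2 and FN1 in all 8 libraries. They were listed for 5 of 5 epithelial genes, with EPCAM, KRT8 and KRT18 in all 8, and CDH1 and KRT19 in 1 untreated and 1 IFNγ library each. Of 6 blood genes 2 had one, both in the WT_5 library with IFNγ alone. Over annotated protein-coding genes, 73.8% had a promoter peak in at least 1 library. The ZBTB48 promoter carried a peak in all 8 libraries, which does not check the knockout, since a promoter can be open over a disrupted coding sequence.

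Of the 8 IFI genes, 5 had a promoter peak in at least 1 library, as did 73.8% of the 19970 annotated protein-coding genes. No IFI gene had one in all 8 libraries, whereas 14006 of the 22301 genes of any type with a promoter peak did. The percentiles of these peaks ranged from 9.56 to 65.1 within their lists. The number of IFI genes with a promoter peak was 2 in WT_4, 4 in WT_5, 2 in KO_C5 and 0 in KO_D2 without treatment, and 2, 4, 5 and 4 in the same clones with IFNγ. The mean was 2.0 ± 1.63 untreated and 3.75 ± 1.26 with IFNγ (SD, n = 4 libraries each), a difference of 1.75 genes, which was 0.750 when all lists were cut to the length of the shortest. Both WT clones had the same number with and without IFNγ, and both KO clones had more with IFNγ. The change was 3.50 genes larger in KO than in WT clones (exact permutation p = 0.333, two-sided, the smallest that 4 clones allow). Over all genes, the number with a promoter peak was likewise higher with IFNγ in both KO clones, by 2455 and 1664, and in WT_5, by 1330, and decreased by 1308 in WT_4. With all lists cut to 16730 peaks, the changes were 0 in both WT clones, -1 in KO_C5 and 4 in KO_D2, and the difference between genotypes was 1.5 genes (exact permutation p = 1.00). When both lists of a clone were cut to the length of the shorter one, an alternative chosen after the data were seen, the change was 0 in WT_4, -1 in WT_5, 0 in KO_C5 and 4 in KO_D2. The difference between genotypes was then 2.50 genes (exact permutation p = 0.667), and of the KO clones only KO_D2 still had more with IFNγ. Averaged over the libraries of a clone, 3.0 ± 1.41 IFI genes had a promoter peak in WT and 2.75 ± 1.06 in KO clones (SD, n = 2 clones each). Peaks elsewhere in the gene body or within 10 kb were found at 2 genes, IFI6 and IFI35, in every library, so that this count did not differ with treatment.

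**Figure D1:**
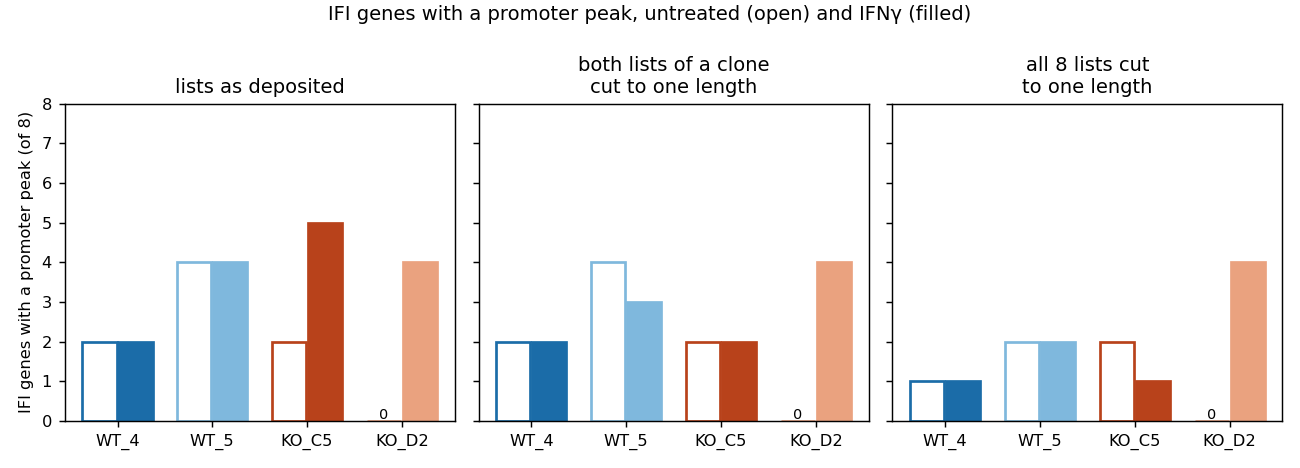
Number of the 8 IFI genes with a promoter peak (y axis) in each clone (x axis), untreated (open bars) and with IFNγ (filled bars), each bar being 1 library. In the lists as deposited KO_C5 went from 2 to 5 and KO_D2 from 0 to 4. With both lists of a clone cut to one length KO_C5 stayed at 2 and KO_D2 still went from 0 to 4.

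Of the 5 IFI genes with a promoter peak, IFI44L counted through IFNγ libraries alone, which fixed its direction. In the lists as deposited, these 5 genes each had the peak in more IFNγ than untreated libraries. This was so of 12.1% of the 19970 annotated protein-coding genes, and of 16.3% of the 14737 with a promoter peak in any library, a background drawn from lists that were longer with IFNγ in 3 of the 4 clones. A gene with the peak in all 8 libraries, as in 14006 of 22301 genes of any type but in no IFI gene, cannot be counted here. With all lists cut to 16730 peaks it was so of 2 of the 8 IFI genes, IFI16 and IFIH1, and of 7.60% of annotated protein-coding genes. With the lists of each clone cut to one length it was so of 3, IFI6, IFI30 and IFIH1, and of 8.21%. None of the IFI genes had a higher percentile in every IFNγ library than in any untreated one, a pattern found in 0.794% of the 22301 genes with a promoter peak (177 genes). In the lists as deposited, the median change of the 5 genes was 15.1 percentile points, against 2.88 over those 22301 genes. With all lists cut to 16730 peaks the changes were -0.953 at IFI6, 3.92 at IFI16, 8.94 at IFI30 and 5.77 at IFIH1. With the lists of each clone cut they were 1.16, -3.73, 6.03 and 6.03 in the same order. IFI44L had no promoter peak left in either, and no median over all genes is given for the cut lists. IFI30 was higher with IFNγ in each of the 4 clones, as were 13.3% of those genes (2969 genes), but in 2 of 4 clones with the lists cut in either way. No gene in the genome passed an adjusted p of 0.05 in the exact permutation test over the 70 assignments of 8 libraries to treatment, whose smallest p is 0.0286 (188 genes had an unadjusted p under 0.05). With that smallest p, adjustment over 22301 genes lets a gene pass only if far more than 188 genes reach it. The lack of calls was therefore set largely by the design. All adjusted p for the IFI genes were 1.00.

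**Figure D2:**
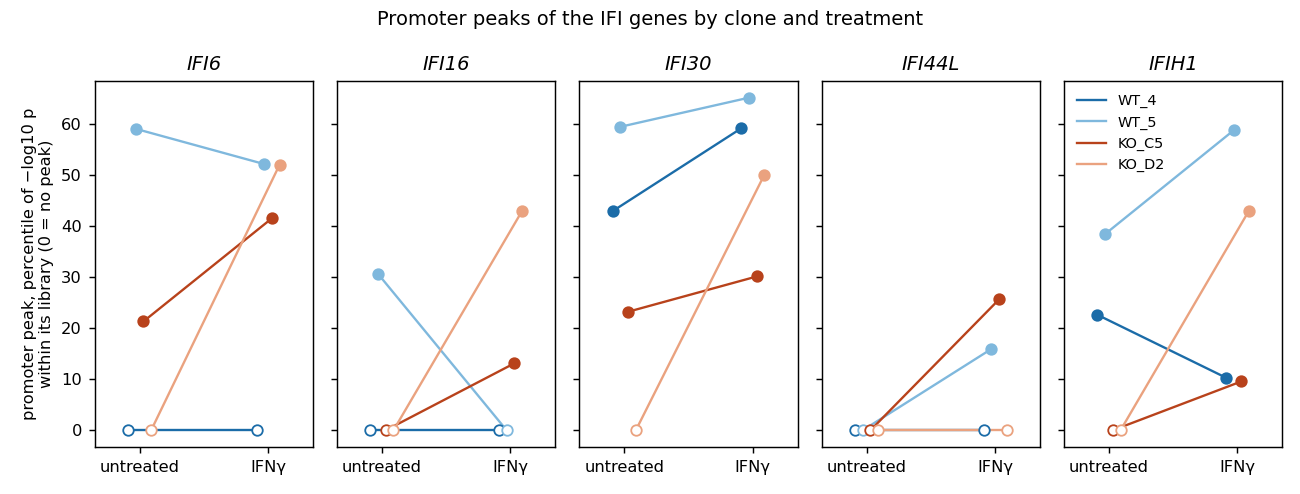
Percentile of the promoter peak within its library (y axis, 0 and an open point where there was no peak) for the 5 IFI genes that had one, untreated and with IFNγ (x axis). Lines join the 2 libraries of a clone. In these lists as deposited, IFI30 was higher with IFNγ in all 4 clones (2 of 4 with lists cut to one length), IFI44L had peaks with IFNγ alone, and the values of untreated and IFNγ libraries overlapped in each gene.

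IFI30, the thiol reductase gene, had the most regular promoter peak, in 7 of 8 libraries. Its percentile without treatment was 42.9 in WT_4, 59.4 in WT_5, 23.2 in KO_C5 and 0 in KO_D2, and with IFNγ it was 59.1, 65.1, 30.1 and 50. In the lists as deposited the IFNγ library was the higher one in 4 of 4 clones, but the treated and untreated ranges overlapped. With all lists cut to one length, or the lists of each clone, it was higher in WT_4 and KO_D2 alone. The mean was 51.1 ± 15.3 with IFNγ and 31.4 ± 25.6 without (SD, n = 4 each), a difference of 19.7 points (exact permutation p = 0.257, and p = 0.125 with the libraries paired by clone, the smallest that 4 pairs allow). That difference was 8.94 with all lists, and 6.03 with the lists of each clone, cut to one length. In WT_4 the summit pileup went from 19 to 30 fragments and the fold enrichment from 12.1 to 19.1, while in WT_5 the pileup went from 29 to 33 and the fold from 14.8 to 19.2. KO_C5 went from 19 to 29 fragments at a nearly level fold of 6.14 and 6.15, and KO_D2 had no listed peak without IFNγ and 36 fragments, a fold of 9.27, with it. Neither IFI30 nor any other IFI gene entered the limma fit on the 14006 promoters with a peak in all 8 libraries, which called 0 promoters (420 at an unadjusted p under 0.05) and 7, all higher with IFNγ, with the clone as a replicate block. With a peak in at least 6 libraries required, limma gave IFI30 a log2 change in fold enrichment of 0.44 ± 0.38 (SE, adjusted p = 0.886). The printed IFI30 stretch lies inside the region joined from these peaks, chr19:18173503-18174517, whose summits fell at bases -123 to -44 from the start site.

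IFI30 also had the largest mean difference between genotypes of the 5 genes. Averaged over the 2 libraries of a clone, its percentile was 56.7 ± 7.95 in WT and 25.8 ± 1.1 in KO clones (SD, n = 2 clones each), a difference of 30.8 points (exact permutation p = 0.333, the smallest possible). The lowest WT library, at 42.9, lay below the highest KO library, at 50, so that the genotypes overlapped. No IFI gene was higher in every WT library than in any KO library, which held for 5.43% of genes. The fold and the pileup, which is not scaled to the library, did not give the same picture at IFI30. The fold was 12.1 to 19.2 in the 4 WT libraries and 6.14 to 9.27 in the 3 KO libraries with a peak. No share of all genes with folds so apart is given. The summits of WT libraries held 19 to 33 fragments and those of KO libraries 19 to 36. The local background at this site was 0.621 to 1.02 fragments in the WT clones and 2.25 to 3.87 in the KO clones. Over 1 in 10 of all listed peaks, taken at regular steps, the median local background was likewise higher in the KO clones, at 1.83 to 3.10 fragments per library, than in the WT clones, at 0.945 to 1.55. Its part in the genotype difference was not tested.

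IFIH1, the double-stranded RNA sensor gene, had a promoter peak in 6 of 8 libraries. Without treatment its percentile was 22.6 in WT_4, 38.4 in WT_5 and 0 in both KO clones, and with IFNγ it was 10.3, 58.7, 9.56 and 43.0. In the lists as deposited the peak was thus found in both KO clones only with IFNγ and in WT throughout. With all lists cut to one length it was left in 2 libraries, WT_5 and KO_D2 with IFNγ, and with the lists of each clone cut it was lost from KO_C5. The mean was 30.4 ± 24.5 with IFNγ and 15.2 ± 18.8 without (SD, n = 4 each), a difference of 15.1 points (exact permutation p = 0.343), with 3 of 4 clones higher. It was 5.77 with all lists, and 6.03 with the lists of each clone, cut to one length. Between genotypes it was 32.5 ± 22.7 in WT and 13.1 ± 11.8 in KO clones (SD, n = 2 clones each, exact permutation p = 0.667). The pileup was 11, 17, 8 and 28 fragments in the WT libraries (WT_4 and WT_5 untreated, then with IFNγ) and 18 and 34 in the IFNγ libraries of KO_C5 and KO_D2. The highest pileup, not scaled to the library, was therefore in a KO library, over a local background of 3.73 fragments against 0.723 to 1.10 in WT. The region joined from these peaks, chr2:162318422-162319112, covers the printed stretch and its 3 ISRE matches. It also lies within 1 kb of a start site of GCA, which encodes the calcium-binding protein grancalcin. GCA had a stronger peak of its own in all 8 libraries, at percentiles of 33.1 to 86.8, and in no library was this the IFIH1 peak.

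**Figure D3:**
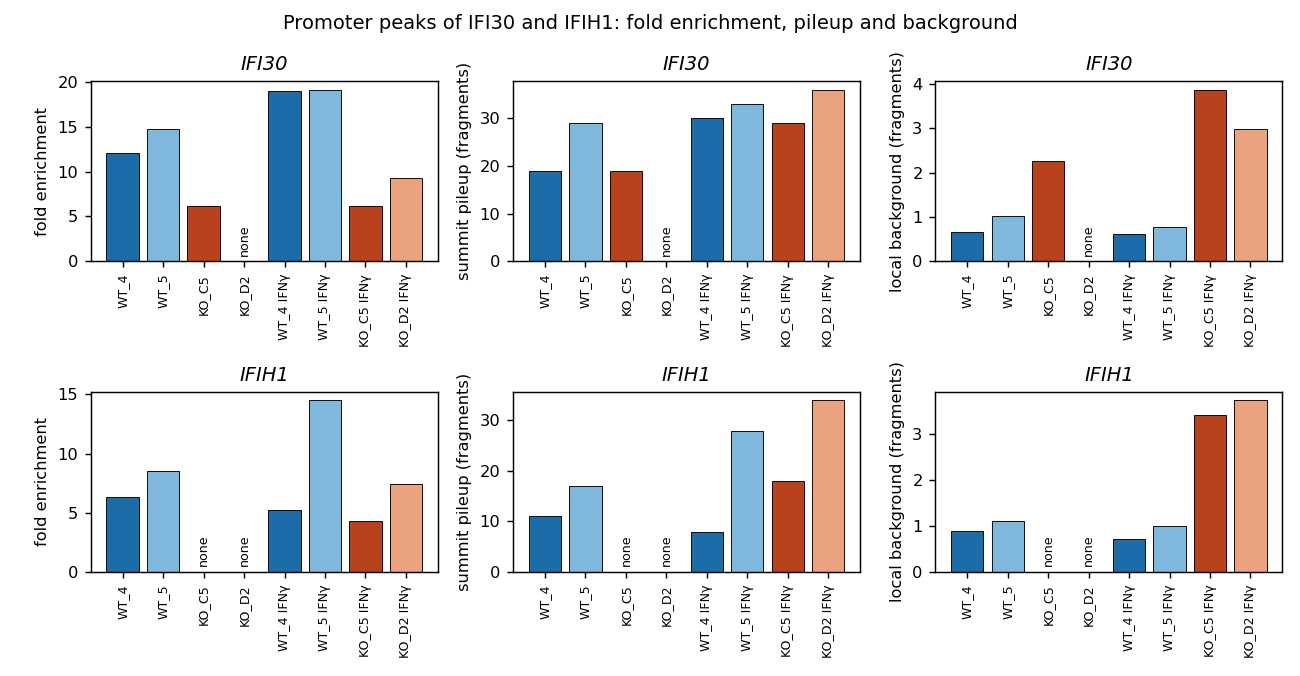
Fold enrichment, summit pileup and local background (y axes, the last 2 in fragments) of the promoter peaks of IFI30 and IFIH1 in the 8 libraries (x axis, 1 bar each), with "none" where no peak was listed. Pileups of WT and KO libraries, not scaled to the library, overlap, while the local background is 0.621 to 1.10 fragments in the WT bars and 2.25 to 3.87 in the KO bars.

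IFI6, an antiapoptotic membrane protein gene, had a promoter peak in 5 of 8 libraries. Its percentile without treatment was 0 in WT_4, 59.0 in WT_5, 21.3 in KO_C5 and 0 in KO_D2, and with IFNγ it was 0, 52.1, 41.5 and 52.0. WT_4 had no promoter peak under either condition, WT_5 was slightly lower with IFNγ, and both KO clones were higher. The means were 36.4 ± 24.8 and 20.1 ± 27.8 (SD, n = 4 each), a difference of 16.3 points (exact permutation p = 0.486). With all lists cut to 16730 peaks this difference turned to -0.953, and with the lists of each clone cut it was 1.16. The summits fell at bases -138 to -73 from the start site, in the stretch that holds the 3 ISRE matches printed above. The strongest open site near IFI6 was not at its promoter. A region at chr1:27659769-27660354, intergenic and with its summit 12042 bp downstream of the start of IFI6, had a peak in all 8 libraries, at percentiles of 44 to 74.8. Its mean was 67.7 with IFNγ and 64.1 without (exact permutation p = 0.83), and no motif of the 3 was found in the 300 bases around its summit. Within the gene body, 2 further regions had a peak in 3 libraries each. One of them, at chr1:27668122-27668446, was found in WT libraries alone (2 from WT_4 and 1 from WT_5), at percentiles of 12.8 to 19.3.

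IFI44L had a promoter peak with IFNγ alone, in 2 of 4 IFNγ libraries and 0 of 4 untreated ones. The percentiles were 15.9 in WT_5 and 25.6 in KO_C5, with 10 and 15 fragments at the summit, and WT_4 and KO_D2 had none (difference 10.4 points, exact permutation p = 0.429). This was the lowest mean of the 5 genes, and both peaks were lost when the lists of a clone were cut to one length. Their summits lay at bases -83 and -118, between the starts of the 2 ISRE matches at -164 and -73. IFI44, its neighbour, had no peak at its promoter, in its body or within 10 kb in any library, although its RefSeq promoter holds an ISRE match. IFI27 likewise had no peak in any window.

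IFI16, the DNA sensor gene, had a promoter peak in 3 libraries, but not at one start site. In untreated WT_5 (percentile 30.6) and in KO_D2 with IFNγ (42.9), the peak lay at an upstream start, with summits at bases -10016 and -10014 from the canonical one, in the region chr1:158999744-159000046. In KO_C5 with IFNγ (13.1) it lay at base -44 from the canonical start. The mean was 14.0 ± 20.3 with IFNγ and 7.65 ± 15.3 without (SD, n = 4 each, exact permutation p = 0.714). WT_5 lost its peak with IFNγ, so the direction was not shared between clones. At the canonical start alone, IFI16 had a peak in 1 library. The KO clones' IFNγ change exceeded that of both WT clones for IFI6 and IFI16, 2 of the 5 genes with a promoter peak, and for 33.1% of all genes with one.

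IFI35 had no promoter peak in any library, yet 6 open regions lay within 10 kb of it. The regions that were present in all 8 libraries lay at the start of RPL27, a ribosomal protein gene upstream (percentiles 43.2 to 92.4), and at a start of VAT1, a vesicle amine transport protein gene downstream (51.7 to 73.5). A region at chr17:43003964-43004357, with its summit at base -2589 from the canonical start of IFI35, whose starts are the nearest to it, had a peak in 5 libraries. These were the 4 WT libraries, at percentiles of 18 to 41.5, and KO_C5 with IFNγ, at 44.2. Its clone means differed by 21.1 points between WT and KO (exact permutation p = 0.333) and its treatment means were 25.6 and 17.5 (exact permutation p = 0.657). Another region at chr17:43021101-43021523, in an intron of VAT1, had a peak in all 4 IFNγ libraries and in 1 untreated library. Its percentiles were 13.2, 31.0, 18.4 and 39.9 with IFNγ in WT_4, WT_5, KO_C5 and KO_D2, and 26.2 in untreated WT_5. The mean difference of 19.1 points (exact permutation p = 0.0857, adjusted p = 1.00 over all regions) was the largest of the 6, and the groups overlapped through WT_5. None of the 16 regions assigned to the IFI genes was higher in every IFNγ library, against 0.534% of 52105 regions, and 11 of the 16 had a peak in more IFNγ than untreated libraries, against 46.7% of all regions.

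**Figure D4:**
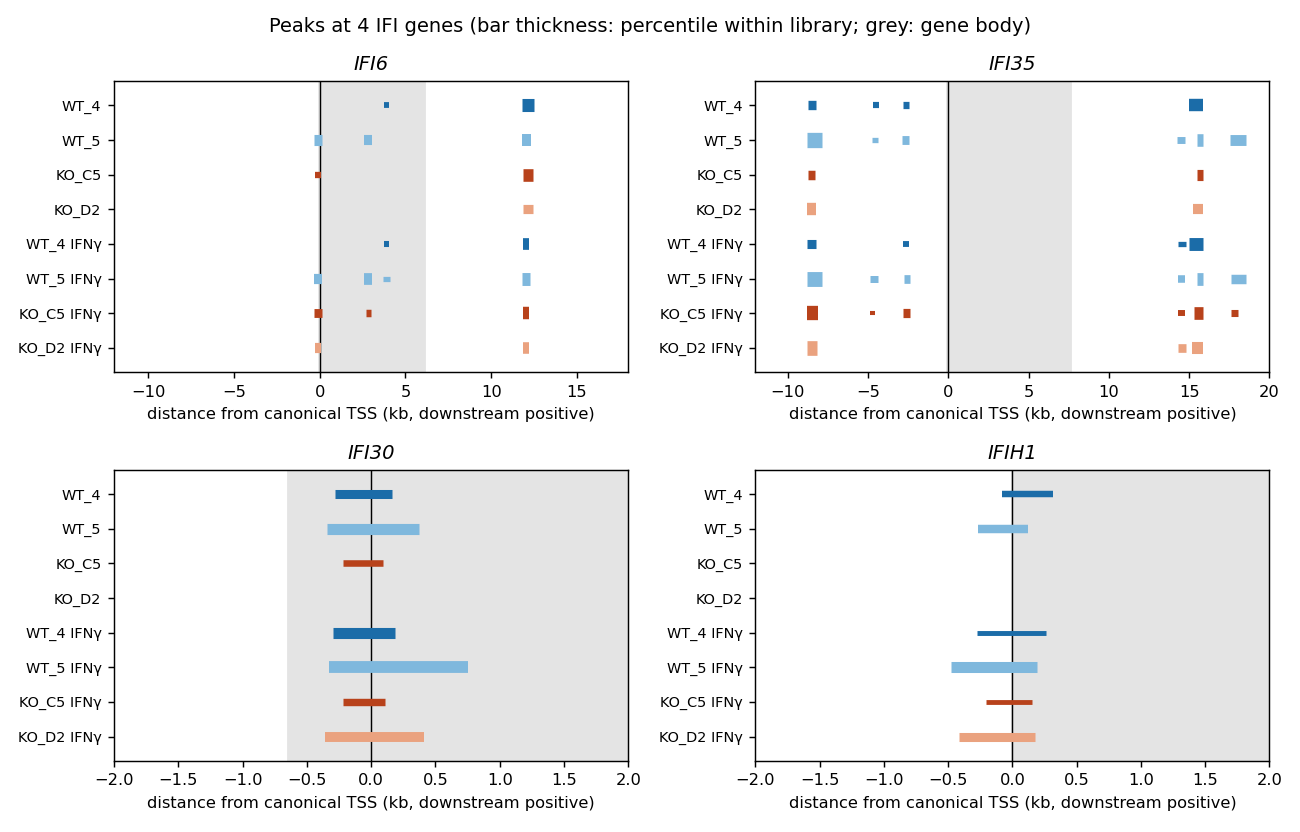
Peaks of the 8 libraries (rows) by distance from the canonical TSS in kb (x axis) at IFI6, IFI35, IFI30 and IFIH1, with bar thickness scaled to the percentile within the library and the gene body in grey. The site downstream of IFI6, 12042 bp from its start, is in all 8 rows, IFI35 has no peak at its start, and untreated KO_D2 has no promoter peak in any of the 4 panels.

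By mean percentile with IFNγ, the 5 genes ranked IFI30 (51.1), IFI6 (36.4), IFIH1 (30.4), IFI16 (14.0) and IFI44L (10.4), and each neighbouring pair in this order differed by less than the larger of its SDs. Without treatment the order was IFI30 (31.4), IFI6 (20.1), IFIH1 (15.2), IFI16 (7.65) and IFI44L (0). The libraries had a shared pattern across the genes. WT_4 had no promoter peak at IFI6, IFI16 or IFI44L under either condition, and KO_D2 had no promoter peak at any IFI gene without treatment.

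Protein-coding genes with the most similar promoter percentiles over the 8 libraries were FLRT3, ZRANB2 and UPRT for IFI6, at mean absolute differences of 2.37 to 3.58 points. They were MESP2, ENSG00000267360 and ENTREP1 for IFI16 (2.99 to 3.28), GPER1, GRM4 and H2BC12 for IFI30 (6.69 to 6.96), TCEAL1, SCUBE2 and ESRP1 for IFI44L (0.655 to 0.846) and COL11A1, NKAP and RHOXF1P3 for IFIH1 (5.12 to 5.53). NKAP and RHOXF1P3 overlap on chromosome X and had the same percentile in every library, so they are not independent likenesses. None of the similar genes was in the interferon lists given next. For IFI44L and IFI16 the likeness rests largely on libraries where both genes lacked a peak.

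Other interferon genes gave a scale for these values, in the lists as deposited alone. Of 14 signalling genes, all had a promoter peak and 13 had it in all 8 libraries. The percentile of USP18, which restrains type I interferon receptors, was 44.5 to 55.6 without treatment and 61.8 to 81.5 with IFNγ, without overlap. Of 18 antiviral effector genes, 13 had a promoter peak, 7 in more and 1 in fewer IFNγ libraries. Over all 22301 genes with a promoter peak these shares were 21.2% and 8.85%. OAS3 and RSAD2 did not overlap between treatments, and 0.794% of those 22301 genes were likewise higher in every IFNγ library. RSAD2, the viperin gene, went from a range of 7.38 to 53.6 to one of 74.9 to 77.3, and OAS3, an oligoadenylate synthetase gene, from one of 0 to 42.2 to one of 58.0 to 76.7 (exact permutation p = 0.0286 and adjusted p = 1.00 for each of USP18, RSAD2 and OAS3). These 3 genes were named for their lack of overlap, which by itself gives the smallest p of this test. The median change was 16.9 points over the 13 effector genes and 3.03 over the 14 signalling genes. Of 16 sensing genes, 12 had a promoter peak and 5 had it in more IFNγ libraries, with a median change of 7.69, and of 10 relatives and partners 7 had one and 3 had it in more IFNγ libraries, with a median of 6.48. In the sensing and relatives lists the treatments overlapped at every gene. The IFI genes had a promoter peak in 5 of 8 cases, with no gene in all 8 libraries, where the sensing and effector lists each had 5 such genes. Over all 22301 genes with a promoter peak, 14006 had it in all 8.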

How the data were processed

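FAIRE-seq peak lists of 8 libraries, 1 per clone and treatment, were analysed as the authors deposited them. Per the submitters' processing notes the tools were Trimmomatic, Bowtie2 2.2.5 (genome GRCh38), SAMtools 1.14 and MACS2 2.2.7.1 in paired-end mode. Whether input DNA was the control, and how duplicates were treated, is not given in the sources used here. The deposited fold enrichment is a ratio of summit pileup to local background (each raised by 1 fragment). The deposited −log10 p and −log10 q come from the same caller. No count of reads was used, so depth is known only indirectly, through the summit pileups and local backgrounds of listed peaks.

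Peaks on chromosomes 1 to 22 and X were matched to GENCODE 44. The strongest peak within 1 kb of any TSS gave a gene its value, ranked by −log10 p within the library, and a gene without a peak was given 0. Summit pileup and local background were solved from fold and −log10 p under a Poisson model, which fitted 100% of the weakest peaks of each list. Overlaps of at least 1 bp joined peaks into regions. Treatment was tested by an exact permutation test, two-sided, over 70 assignments of libraries, and genotype over 6 assignments of clones, with Benjamini-Hochberg adjustment over all genes. limma 3.58.1 (R 4.3.3) was fitted to median-centred log2 fold enrichment. Python 3.11.15 was used otherwise.

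The clone named in the labels ties each untreated library to 1 IFNγ library, and deviations of the pair from the group means had r = 0.620 in WT and 0.317 in KO over 22301 genes, which are not independent replicates. The IFI genes, the lists and the tests were chosen with earlier results of these data known. Genes outside the 8 were named if a start lay within 1 kb of a promoter peak of theirs, if they were among the 3 most alike by mean absolute percentile difference, or if their treatments did not overlap within a list. A gene of the signalling list is not reported here. All 11 RefSeq promoters of the 8 genes equalled the GRCh38 sequence. The permutation and limma code was tested on simulated data. Alternatives were stricter peaks, lists of equal length, other windows, a replicate block for the clone, and leaving out each library.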

Additional observations from a re-analysis of the deposited data

Results flagged for a closer look

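In 22 sets of 4 libraries (2 treatments and 2 genotypes for each of the 5 genes, and the gene counts by treatment), 4 held a library that stood apart from the other 3. All 4 are sets in which a single library had a promoter peak and the others had none, so that it stood apart by construction. The usual share of chance flags, about 1 set in 20, does not apply to such ties, and the sets share libraries. At IFI16 the percentile of 30.6 in untreated WT_5 stood apart among both the untreated and the WT libraries, which were otherwise at 0. At IFI44L the value of 15.9 in WT_5 with IFNγ stood apart among the WT libraries, and the value of 25.6 in KO_C5 with IFNγ among the KO libraries.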

How the results depend on the processing

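Of 263 comparisons with an alternative, 227 kept their direction and their side of the threshold, or for a value without a test lay within 1 SD, 22 moved and 14 turned. Of the 227, 42 still differed from the value given by over 1.5 times, and no adjusted p for an IFI gene came under 0.05 in any. Much of this was set by the design. The exact permutation test of a gene has a smallest p of 0.333 for genotype, and of 0.0286 for treatment before adjustment over all genes. Single genes could therefore hardly change side, and with the clone as a block their mean difference stays the same by construction. With all lists, or the lists of each clone, cut to one length, the IFNγ difference in genes with a promoter peak became 0.750. With all lists cut to 16730 peaks, the WT minus KO difference in genes with a promoter peak became -0.250, the IFNγ difference of IFI6 -0.953 and the WT minus KO difference of IFIH1 -2.13. With the lists of each clone cut to one length, chosen after seeing the data, the IFNγ difference of IFI16 became -3.73. A flank of 5 kb gave an IFNγ difference of 0.500 genes with a peak elsewhere. Genes lower in every IFNγ library numbered 11, 18 at −log10 q of at least 3 or at a fold of at least 4, 321 with lists of equal length and 7 among protein-coding genes only, an alternative added after seeing the data.

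Omitting 1 library at a time, the IFNγ difference in genes with a promoter peak was 1.08 to 2.42 and the WT minus KO difference -0.750 to 1.25, below 0 without either untreated KO library. Genes higher in every IFNγ library ranged from 192 to 1571 (1571 without WT_4 with IFNγ, 1108 without untreated WT_5) and genes lower from 23 to 130. IFNγ differences ranged from 9.65 to 29.3 at IFI6, -3.29 to 14.0 at IFI16, 9.22 to 29.0 at IFI30, 5.31 to 13.8 at IFI44L and 5.71 to 22.9 at IFIH1, and WT minus KO differences from -14.0 to 12.1, -17.1 to 4.38, 18.3 to 43.3, -8.81 to 3.98 and 8.59 to 30.1 in the same order. IFI16 was below 0 without KO_D2 with IFNγ.

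With the clone as a replicate block, 2969 genes were higher and 293 lower in each clone, limma called 7 promoters in place of 0, and the IFNγ difference in IFI genes with a promoter peak was 1.75 ± 2.06 (SD, n = 4 clones). limma on folds that were not centred called 1 promoter. The block could not give a call for an IFI gene. The exact permutation test paired by clone has a smallest p of 0.125, and no IFI gene entered the blocked limma fit. Peak lists without read counts limit what absence of a peak shows, and the causes of these changes were not tested.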
